A study of Mus musculus with 20 samples.

Results

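The chromatin response to methionine restriction was followed in C2C12 mouse myoblasts that lack Setd2, at day 1 (D1). The 4 libraries, of 20 in the series, were selected by their titles: knockout (KO) lines 1 and 2, each in control medium (CTL) and under methionine restriction (MR). WT C2C12 cells at D1, with 2 CTL and 2 MR libraries, served only for comparison. Both media groups of the KO share the loss of Setd2, so they differ in medium alone as far as the labels say. Each KO line gave 1 library per medium, and the sources used here do not say how Setd2 was disrupted, whether a line is 1 clone or how far methionine was lowered. The peak lists of the 4 libraries were merged wherever peaks shared at least 1 bp, which gave 70299 regions. A region was lost when both CTL lists held a peak and neither MR list did, and gained in the reverse case. By this rule 2848 regions (4.05%) were lost and 257 (0.366%) were gained.

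In ATAC-seq a transposase cuts DNA that is not packed by nucleosomes and tags the fragments for sequencing, so a peak marks a stretch of accessible chromatin, usually a promoter or an enhancer. Setd2 is the enzyme that trimethylates lysine 36 of histone H3 in the bodies of transcribed genes. Its methyl donor, S-adenosylmethionine, is made from methionine by methionine adenosyltransferases such as Mat2a, and shortage of amino acids is sensed in part through the transcription factor Atf4. C2C12 cells proliferate as myoblasts and can be induced to form muscle cells under the control of Myod1 and Myog.

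Stretches of the gene starts on which the results below turn are shown first. The bases are from RefSeq promoters of GRCm38.p6, on the strand of the gene, 5′ to 3′, and cover only the part before the annotated start that lies under the region. Capitals mark matches, on either strand, to 1 of 11 short motifs described with the promoter results: CCAAT, which the factor Nfy binds, GGGCGG (GC box), GGAATG (Tead), AGGGGGC (within the CTCF motif) and CANNTG (E-box). The first 4 lost their peak in both lines: Hlx (chr1:184732494-184732743, minus strand), a homeobox factor gene with the strongest of the wide lost regions, Col1a2 (chr6:4505403-4505617, plus strand), a chain of type I collagen, Syde1 (chr10:78591965-78592114, minus strand), and Arl5a (chr2:52424875-52425040, minus strand), a small GTPase of the Golgi. The last, Trib3 (chr2:152344061-152344135, minus strand), is a pseudokinase gene induced through Atf4 whose start moved up in rank under MR.
Hlx: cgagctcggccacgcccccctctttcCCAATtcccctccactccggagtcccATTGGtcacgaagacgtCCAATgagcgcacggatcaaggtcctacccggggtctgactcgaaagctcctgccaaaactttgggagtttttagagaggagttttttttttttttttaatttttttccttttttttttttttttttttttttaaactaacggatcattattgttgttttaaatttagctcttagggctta
Col1a2: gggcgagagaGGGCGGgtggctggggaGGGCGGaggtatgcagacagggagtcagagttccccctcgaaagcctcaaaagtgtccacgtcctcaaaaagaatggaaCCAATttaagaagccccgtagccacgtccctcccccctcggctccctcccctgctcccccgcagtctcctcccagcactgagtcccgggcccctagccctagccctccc
Syde1: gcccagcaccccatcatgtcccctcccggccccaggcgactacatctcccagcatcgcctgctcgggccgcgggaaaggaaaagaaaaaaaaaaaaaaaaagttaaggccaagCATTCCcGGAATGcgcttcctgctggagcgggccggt
Arl5a: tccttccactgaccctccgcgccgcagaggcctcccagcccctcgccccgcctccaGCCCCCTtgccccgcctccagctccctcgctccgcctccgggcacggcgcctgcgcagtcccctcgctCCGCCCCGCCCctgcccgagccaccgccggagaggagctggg
Trib3: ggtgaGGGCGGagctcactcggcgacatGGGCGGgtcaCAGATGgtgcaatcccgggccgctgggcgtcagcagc

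The 4 lists did not have the same resolution, which bears on every count of lost regions. The narrowest peak was 66 bp in line 1 CTL and 79 bp in line 1 MR, and 52 bp in line 2 CTL and 69 bp in line 2 MR. In both lines the MR list therefore held no peak as narrow as the narrowest CTL peaks. Of the 2848 lost regions, 1355 (47.6%) rested on a CTL peak narrower than any MR peak of the same line, against 4.80% of the 26991 regions called in all 4 lists. Counts are given below also for wide regions, in which both CTL peaks (for gained regions, both MR peaks) were at least 158 bp, 2 times the largest of the 4 smallest widths. The background read from the lists, the mean fragment cover of a position, was 3.50 in line 1 CTL and 3.15 in line 1 MR, and 2.30 in line 2 CTL and 2.76 in line 2 MR, so it moved in opposite directions in the lines. Of 6 myoblast markers, 5 were called at a gene end (1 kb or nearer) in each of the 4 libraries, and Myf5 in none. Of 7 genes of differentiating muscle, 3 and 4 were called in the CTL lists of lines 1 and 2 and 3 and 1 in the MR lists, against 5 to 7 in the WT D1 lists. Of 7 genes of other cell types, only Spi1 was called, in all 4 libraries and in WT.

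Fewer peaks were called under MR in both lines. Line 1 had 61045 peaks in CTL and 48460 in MR, and line 2 had 46664 in CTL and 35201 in MR. The log2 ratio of MR to CTL was -0.33 in line 1 and -0.41 in line 2, with a mean of -0.37 ± 0.05 (SD, n = 2 lines). An exact two-sided sign-flip test gave p = 0.5, the smallest that 2 pairs allow. Among the regions called in all 4 lists, the median −log10 q-value was 18.3 in CTL and 14.9 in MR in line 1, and 9.44 in CTL and 7.18 in MR in line 2. The median peak width in these shared regions was also lower under MR. It was 293 bp in CTL and 262 bp in MR in line 1, and 197 bp and 185 bp in line 2. In line 1, 66.7% of these regions were wider in CTL and 31.3% wider in MR. In line 2 the shares were nearer each other, at 54.2% and 44.5%.

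Losses outnumbered gains in the lists as deposited. The 2848 lost regions were 7.61% of the 37408 called in both CTL lists, and the 257 gained regions were 0.871% of the 29509 called in both MR lists. When each list was cut to its 35201 strongest peaks, as many as the shortest list holds, 917 regions were lost and 970 gained. Lists of equal length bring losses and gains within a line close to each other (4539 and 4700 in line 1, 7206 and 7911 in line 2). This setting therefore cannot decide whether losses exceed gains. Requiring at least 79 bp of every peak left 1254 lost and 377 gained regions. Among wide regions 196 of 17764 (1.1%) were lost and 22 of 15801 (0.139%) were gained. With 2 libraries in each group the counts have no test.

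Each line on its own changed far more than the pair did together. Line 1 lost 14501 of the 60309 regions called in its CTL list (24%) and gained 2334 (4.85% of those called in its MR list), and line 2 lost 13821 of 44155 (31.3%) and gained 4039 (11.8%). The shared losses were 19.6% of the line 1 losses and 20.6% of the line 2 losses. The shared gains were 11% and 6.36% of the gains of lines 1 and 2. Many of the single-line losses concerned regions that the other line lacked already in CTL: 9805 regions had a peak in line 1 CTL and in no other of the 4 lists, and 4640 in line 2 CTL and no other. Restricted to regions present in both CTL lists, 4247 were lost in line 1, and line 2 had lost 67.1% of these, against 18.6% of the 33161 that line 1 kept. These shares come from the same calls as the rule. The MR list lacked the narrowest peaks in both lines, and the part of width and strength in this overlap was not tested.

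The share of regions lost was highest among narrow regions and weak peaks. Of regions up to 100 bp wide 69.7% were lost, of those from 100 to 150 bp 21.9%, and of those from 500 to 1000 bp 0.609%. By strength, 24.4% were lost where the lower CTL −log10 q-value was at most 2, and 0.0937% where it was over 12. Gained regions followed the same order, from 20.9% up to 100 bp to 0.0293% from 500 to 1000 bp. The median lost region was 114 bp wide and the median region called in all 4 lists 337 bp. A region called in all 4 lists joins peaks of more lists than a lost one, so part of this difference is built in. Weak peaks lie near the calling threshold, so the order by strength follows in part from the rule. The size of these parts was not tested.

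**Figure D1:**
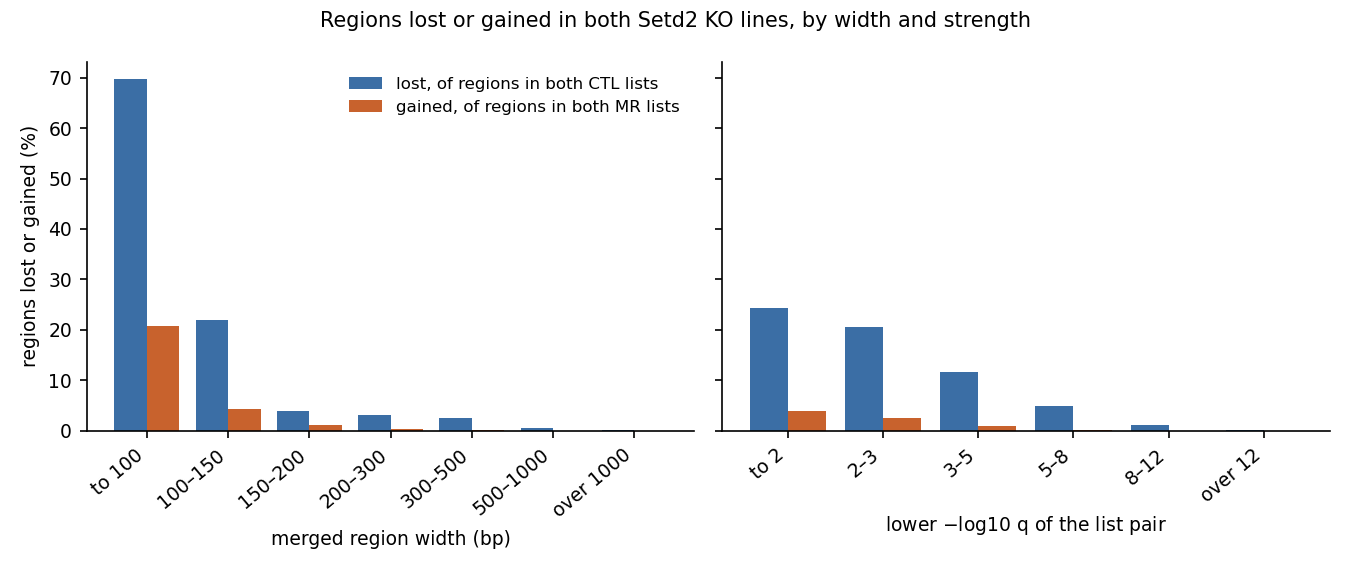
Percent of regions lost (blue, of those in both CTL lists) or gained (orange, of those in both MR lists), by merged region width in bp (left) and by the lower −log10 q-value of the pair of lists that held the region (right). Both shares fall from the narrowest class (69.7% lost, 20.9% gained) and the weakest class (24.4% lost) to under 1% in the widest and strongest classes.

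The 12 strongest lost regions, ranked by the lower of the 2 CTL values and taken once per nearest gene, were mostly narrow. Next to Zbtb8os, a cofactor of the tRNA ligase complex, a region 923 bp from the gene had a −log10 q-value of 18.1 in line 1 CTL and 29.0 in line 2 CTL. The Hlx start followed with 16.1 and 35.9, over peaks of 627 and 160 bp. A region inside Phospho1, a phosphatase of bone mineralization, had 16 and 13.9 over 84 and 83 bp. By the rule, neither MR list held a peak in any of them. The next were nearest to Pcbd2 (13.7 and 18.3), Nol12 (12.9 and 18.6), Fam171a2 (14.5 and 12.6) and Mmadhc (16.1 and 12.3). The region nearest to Mmadhc lay 164853 bp from it. A region 31906 bp from Pax7, the factor of muscle stem cells, had 12.3 in line 1 CTL and 21.4 in line 2 CTL over 70 and 73 bp. The last of the 12 were nearest to Abhd5 (144413 bp away), Aff1, Mtnr1a and Nf1, with lower values from 12 down to 11.2. The narrower CTL peak was between 69 and 104 bp in 11 of the 12 and 160 bp at Hlx. Of the 12, 10 were called in both WT MR libraries, the exceptions being those near Mmadhc, called in no WT D1 library, and Mtnr1a, called in 1 of 2.

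A wide CTL peak can stand beside a narrow MR peak. At Faim the peaks were 368 and 289 bp in CTL and 323 and 88 bp in MR. Wide CTL peaks therefore do not fully remove the difference in narrowest peaks. Among the 196 wide lost regions, the strongest were named after their values were seen. Besides Hlx they included Osbpl9, which encodes an oxysterol-binding protein, with −log10 q-values of 9.06 in line 1 CTL and 15.6 in line 2 CTL. Col1a2 had 11.1 and 7.65 over 415 and 269 bp that span its start. Efemp2, an elastic fibre protein, had 7.93 and 7.16. An intronic stretch of Pde4b, a cAMP phosphodiesterase, had 6.97 and 10.5 over 464 and 474 bp. The gene starts of Syde1 (6.54 and 6.21) and Arl5a (6.81 and 6.13) were near the middle of the 16 named, and Pard6a, a cell polarity protein, was last with 7.10 and 5.17. All 16 were lost also after depth was equalised, and 14 of 16 with equal lists, Cct2 and Spring1 being the exceptions. Both settings only take peaks away, and the 16 were chosen for strong CTL peaks. Neither setting can therefore test the absence of a peak under MR. A cut at a −log10 q-value of 5 cannot test them either, since their lowest CTL value was 5.17. Where peaks had to cover 50% of the region, Hlx, Efemp2 and Cct2 no longer counted as lost. In WT, 14 of these 16 had a peak in both MR libraries, Col1a2 in 1 of 2, and the region inside Tnrc18 in neither, although both WT CTL libraries had one. Over all 196 wide lost regions 64.8% had a peak in both WT MR libraries, against 95.8% of the wide regions called in both KO CTL lists. The lost ones were weaker, with a median lower CTL −log10 q-value of 2.52 against 9.94, and the part of strength was not tested.

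**Figure D2:**
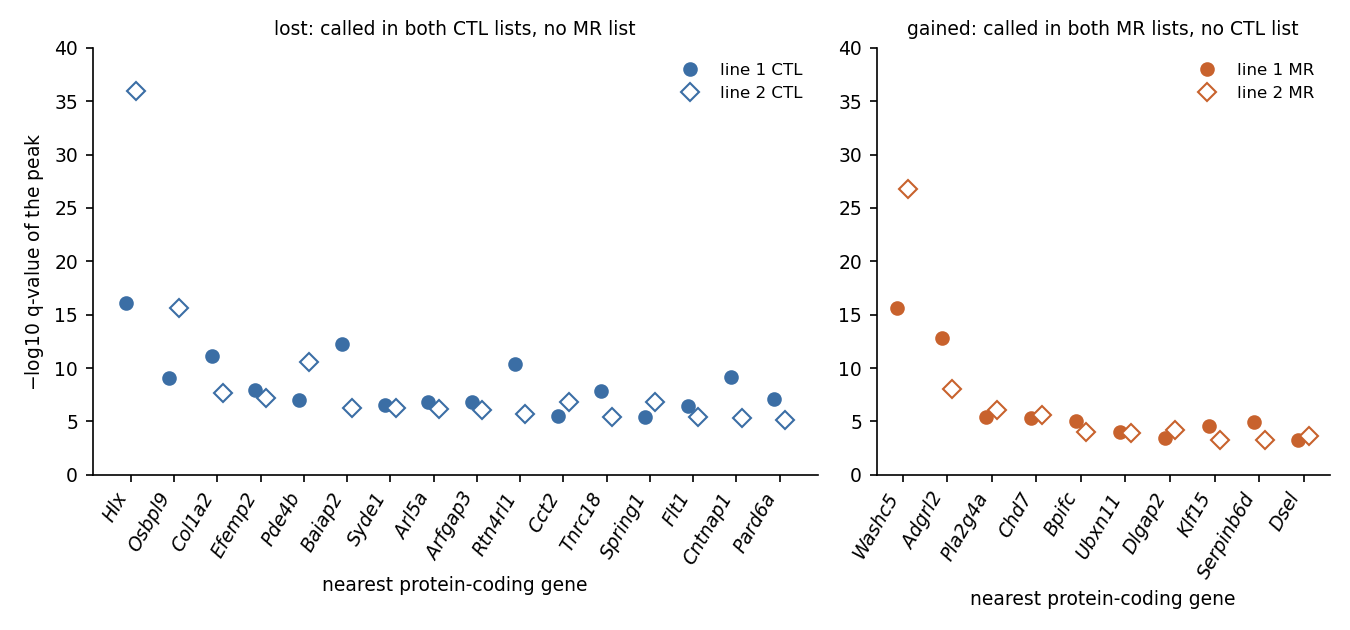
The −log10 q-value of the peak in line 1 (filled circles) and line 2 (open diamonds) for the strongest wide lost regions (left, CTL libraries) and the strongest wide gained regions (right, MR libraries), labelled by nearest gene. Every region shown had no peak in the 2 libraries of the other medium. Hlx (16.1 and 35.9) and Washc5 (15.7 and 26.8) stand above the rest.

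The share of losses at gene ends depended on their width. A region counted as gene end when it lay within 1 kb of either end of a protein-coding gene. Of all lost regions 21.7% were at gene ends, against 26.8% of the regions called in both CTL lists and 29.5% of those called in all 4. Of the wide lost regions 45.9% (90 of 196) were at gene ends, against 37.8% of the wide regions called in both CTL lists. Gained regions were mostly far from gene ends: 7.39% (19 of 257) were at a gene end and 59.5% lay between genes.

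Gained regions were led by a stretch inside Washc5, a subunit of the endosomal WASH complex. It had −log10 q-values of 15.7 in line 1 MR and 26.8 in line 2 MR and no peak in either KO CTL list, while all 4 WT D1 libraries had a peak there. A region 998835 bp from Adgrl2, an adhesion G-protein-coupled receptor, had 12.8 and 8.06 and was called in no WT D1 library. Scpep1 (7.08 and 7.13), Efcab1 (6.40 and 8.98), Shank2 (5.92 and 7.44), Tmprss15 (5.90 and 6.07), Adgb (6.40 and 5.65) and Pla2g4a (5.43 and 6.07), a phospholipase that releases arachidonic acid, completed the 8 strongest. The wide gained regions also included 1 inside Klf15, a metabolic transcription factor of muscle, with 4.59 and 3.30, and 1 between genes 19986 bp from Chd7, a chromatin remodeller, with 5.28 and 5.57.

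Gained regions often changed in the same way in WT cells. Of the 257, 105 (40.9%) were called in both WT MR libraries and in neither WT CTL library, and 0 showed the reverse. The same WT pattern was found in 6.67% of all 70299 regions. It was found in 17.1% (511) of the 2986 regions that had no KO CTL peak and a peak in exactly 1 KO MR list, a lower share than where both lines gained the region. The WT lists were longer under MR, with 69881 and 57676 peaks against 60173 and 45545 in CTL. Of the 22 wide gained regions 15 were gained in WT. Pla2g4a, Chd7, Bpifc, Ubxn11, Dlgap2, Klf15 and Serpinb6d were among them. At D5, 33.5% and 28.8% of the gained regions were called in the WT MR libraries and 1.95% and 1.56% in the WT CTL libraries, with 49% and 48.7% against 28.8% and 27.1% for all regions.

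Few of the lost regions were also lost in WT, where loss was rare throughout. Of the 2848, 40 (1.40%) were lost in WT, against 0.688% of all regions and 0.334% (125) of those called in both KO CTL lists. Lost regions were also less often present in WT: 1130 (39.7%) had a peak in all 4 WT D1 libraries, against 49.7% of all regions and 76.8% of those called in both KO CTL lists. The median lower KO CTL −log10 q-value was 2.87 in lost regions and 6.51 in those called in both KO CTL lists. These shares have no test, and the part of strength in them was not tested. At D0, 78.1% of the lost regions were called in KO line 1 and 22.7% in KO line 2, while the regions called in all 4 D1 libraries reached 98.4% and 83.4%. At D5 the line 2 libraries called 13.6% of the lost regions in CTL and 4.71% in MR, while all regions stood at 40.7% and 30.7% and those called in all 4 D1 libraries at 83.5% and 68.7%, so the share was lower in MR in each set. The D5 libraries of line 1 held only 644 peaks in CTL and 1881 in MR and were not used for this.

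**Figure D3:**
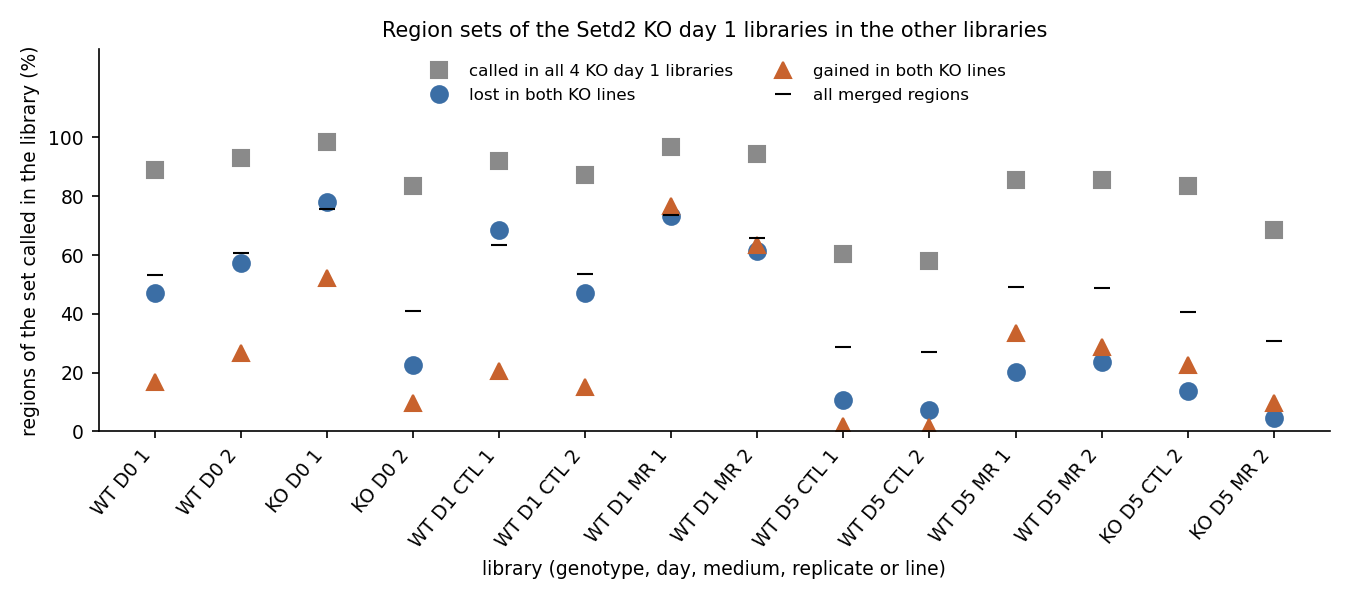
Percent of the regions in each set that had a peak in each other library: regions called in all 4 KO D1 libraries (grey squares), lost (blue circles), gained (orange triangles) and all merged regions (black bars). Gained regions reach 76.7% and 63.4% in the WT D1 MR libraries and 20.6% and 15.2% in the WT D1 CTL libraries. The D5 libraries of KO line 1 are left out.

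Strength was then compared in the 26991 regions called in all 4 libraries. The fold enrichment was ranked within each library and the ranks were turned into normal scores, on which a difference of 1 equals 1 SD of a library's regions. With the line as a block, limma called 97 regions (0.359%) higher and 113 (0.419%) lower under MR at an adjusted p under 0.05. Without the block it called 0, with 507 at an unadjusted p under 0.05. With 1 residual degree of freedom, the spread was almost wholly pooled over regions, and leaving out a line leaves no test. With ranks of the −log10 p-value 8 regions passed, all higher under MR, and among regions whose 4 peaks were wide 9 passed. The direction of change was the same in both lines for 57.8% of all regions tested.

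The 5 regions that moved up most all stood at or below percentile 11.9 in both CTL libraries. Inside Mapre2, which binds growing microtubule ends, the region stood at percentile 0.461 in line 1 CTL and 0.780 in line 2 CTL, and at 27.3 and 46.0 in MR. A region 343927 bp from Myc, the growth-promoting transcription factor, stood at 6.95 and 0.539 in CTL and 54.9 and 50.1 in MR. For Ptgs2, the inducible cyclooxygenase of prostaglandin synthesis, a region 7203 bp from the gene moved from percentiles 0.609 and 4.28 to 29.8 and 67.1, with fold enrichments of 2.92 and 3.54 in CTL and 5.23 and 5.97 in MR. In each of these regions both MR values lay above both CTL values. Ptgs2 differed by 2.07 (SE 0.39, limma adjusted p = 0.00117), and it passed as well among wide regions (limma adjusted p = 0.00972) and by ranks of the −log10 p-value (limma adjusted p = 0.0308). Like every other region, it did not pass without the block. Nor did its KO effect pass in a fit over the 8 D1 libraries of KO and WT (limma adjusted p = 0.141). Regions in Gna14, a G-protein subunit, and 84225 bp from Tbx18, a T-box factor, completed the 5. Both differed by at least 2.05.

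The 5 regions that moved down most were nearest to Nudt6, Faim, Atrnl1, Frmd8 and Bbs7. The one nearest to Frmd8 lay between genes, 34805 bp from it. The Nudt6 region, which also lies in or within 10 kb of the neighbouring growth factor gene Fgf2, stood at percentiles 60.6 and 93.0 in CTL and 14.3 and 9.63 in MR, a difference of -2.06 (SE 0.39, limma adjusted p = 0.00117). At Faim, an inhibitor of apoptosis, line 1 moved from 83.1 to 57.0 and line 2 from 94.2 to 7.31, so most of the change came from line 2. The region at Bbs7, a component of the ciliary BBSome, stood at 32.2 and 55.6 in CTL and 6.10 and 0.787 in MR. In all 5 regions both MR percentiles lay below both CTL percentiles. None of the 5 passed by ranks of the −log10 p-value, where their limma adjusted p lay between 0.0652 and 0.203.

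**Figure D4:**
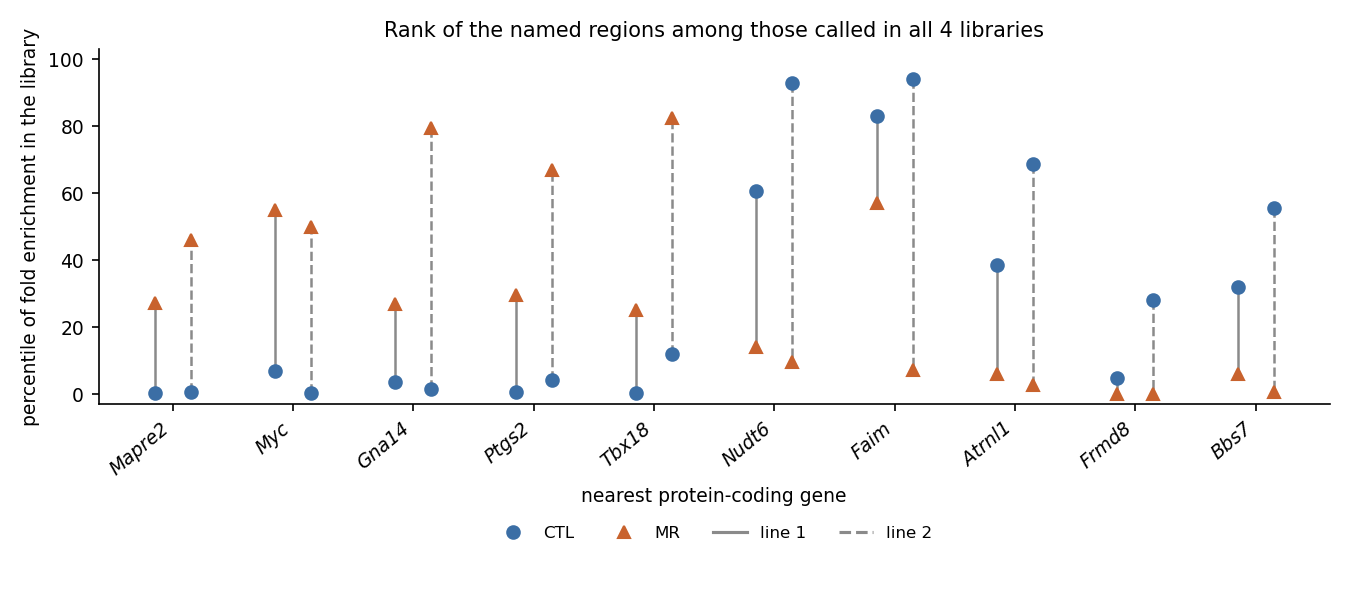
Percentile of fold enrichment within each library, among the 26991 regions called in all 4, for the 5 regions that moved up most and the 5 that moved down most, labelled by nearest gene. Circles are CTL, triangles MR, solid lines join the libraries of line 1 and dashed lines those of line 2. Only regions that moved the same way in both lines were eligible.

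The regions that moved up lay mostly between genes. Of the 97 higher regions 52.6% lay between genes and 6.19% at gene ends, against 31.7% and 29.5% of all tested. Of the 113 lower regions 34.5% were at gene ends. Median peak widths of the higher set were 164 and 131 bp in the CTL libraries of lines 1 and 2 and 190 and 164 bp in the MR libraries. Those of the lower set were 221 and 142 bp in CTL and 192 and 111 bp in MR, and the part of width in these ranks was not tested.

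The ranked changes had the same direction in WT for most regions. Of the 97 higher regions 47 had a peak in all 8 D1 libraries, and 46 of these were higher under MR in WT too, with a median WT difference of 1.07. Of the 108 lower regions with all 8 peaks, 89 were lower in WT, with a median of -0.64. Over all 23169 such regions 11678 were higher in WT and the median was 0.0047. In WT, limma called 613 regions (2.65%), among them Ptgs2 (1.94, SE 0.31, limma adjusted p = 0.0234), Nudt6 (-2.14, limma adjusted p = 0.0409) and Atrnl1 (-1.75, limma adjusted p = 0.0364). The difference between the KO and WT effects was tested itself and limma called 0 of 23169 regions (0%), with 2997 at an unadjusted p under 0.05. In the same fit the KO effect alone also gave 0 calls, with 3771 at an unadjusted p under 0.05.

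Genes of 17 lists on muscle, amino acid supply and signalling were followed through the lost and gained regions that lie in them or within 10 kb. Of 1446 regions near a listed gene and called in both CTL lists, 112 (7.75%) were lost, against 7.84% of the 28689 near any protein-coding gene. List shares ran from 2.44% (2 of 82) for AP-1 and related factors to 11.6% (8 of 69) for muscle differentiation. These shares rest on counts of at most 14 regions and have no test.

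Muscle genes came first. The 8 losses of the differentiation list lay near Mef2d and Tnni1 with 2 each, and Mef2c, Myh3, Tnnc1 and Tnnc2 with 1 each, that is Mef2 transcription factors, an embryonic myosin and subunits of troponin. Their narrower CTL peaks were between 52 and 116 bp, and among the 25 wide regions of the list 0 were lost. In myoblast identity genes 6 of 64 (9.38%) were lost, 2 of them at Pax3, a factor of muscle progenitors, and 0 of 33 wide ones. Myod1 kept the peak at its gene end in all 4 libraries, with −log10 q-values of 6.94 in line 1 CTL, 3.66 in line 2 CTL, 10.2 in line 1 MR and 6.09 in line 2 MR. The value was higher in MR than in CTL within each line, while the ranges of CTL and MR overlapped across the lines, and this was not tested. Mymk, which drives myoblast fusion, had a gene-end peak of 14.8 in line 1 CTL, 6.21 in line 2 CTL and 13.1 in line 1 MR and none in line 2 MR. Myog, the differentiation factor, had no such peak in any KO library and one in all 4 WT D1 libraries.

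Genes of methionine use and the amino acid response were next. Of 55 regions near methionine and one-carbon genes 4 (7.27%) were lost, near Mthfd1l, Mtap, Srm and Ahcyl2, with narrower CTL peaks of 74, 68, 54 and 75 bp. Mat2a kept its gene-end peak, with −log10 q-values of 14.4 and 12.8 in CTL and 6.82 and 12.7 in MR. The Setd2 gene ends were called in all 4 KO libraries, with 27.2 and 13 in CTL and 14.6 and 8.97 in MR. An accessible gene end does not check the knockout.

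Among Atf4 targets 4 of 65 regions were lost and 3 of 69 (4.35%) were gained, against 0.871% for all regions. The next shares gained were 3.45% (2 of 58) for insulin-like growth factor genes and 3.08% (2 of 65) for Notch genes. These few gains have no test. Those of the Atf4 list were a pair next to Chac1, which degrades glutathione, and 1 near Gpt2, an alanine aminotransferase. At Chac1 the first region had −log10 q-values of 3.43 in line 1 MR and 1.42 in line 2 MR and the other 4.62 and 3.31, with no CTL peak in either. The Gpt2 region had 4.69 and 2.43. It was gained in WT too, while at least 1 WT CTL library had a peak in each Chac1 region. At the start of Trib3, printed above, fold enrichment was 4.54 and 4.60 in CTL and 7.72 and 6.86 in MR, a rank difference of 1.44 (SE 0.39, limma adjusted p = 0.0421). The WT difference there was 0.69, with a limma adjusted p of 0.158. At Trib3 the difference between the KO and WT effects did not pass (limma adjusted p = 0.394). Nor did the KO change by ranks of the −log10 p-value (limma adjusted p = 0.111). Trib3 was the 1 region of 58 in this list that passed upward, and 0 passed downward. The losses near Wars, a tRNA synthetase gene, were 2 regions with −log10 q-values of 1.5 and 4.46, and of 1.35 and 3.38, in the CTL libraries of lines 1 and 2.

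In the TGF-beta, activin and BMP list 14 of 171 (8.19%) were lost, against 7.84% near any protein-coding gene, and 3 of 90 wide ones. Acvr1 (2 of 13) and Bmpr2 (2 of 5), both receptors, and the inhibitor Smad7 (2 of 12) had 2 each. At Bmp4, a ligand, a wide region had 8.07 in line 1 CTL and 2.89 in line 2 CTL. Inhba, the activin A subunit, moved down in rank at 1 region, from percentiles 57.7 and 40.3 in CTL to 3.41 and 4.66 in MR, a difference of -1.73 (limma adjusted p = 0.0114). The WT difference at Inhba was -0.07, but the difference between the KO and WT effects did not pass (limma adjusted p = 0.262). By ranks of the −log10 p-value the KO change at Inhba did not pass either (limma adjusted p = 0.0795). Wnt genes lost 10 of 89 (11.2%), Notch genes 9 of 85 (10.6%) and insulin-like growth factor genes 8 of 80 (10%). Those with 2 losses were Tcf7l2 (2 of 9), a Wnt pathway transcription factor, and Igf1r (2 of 9), the insulin-like growth factor receptor. In the Notch pathway they were Lfng (2 of 7) and Maml3 (2 of 14). The list of Tead, Yap and their targets lost 8 of 97 (8.25%), near the 7.84% for any protein-coding gene, and 1 of 47 wide ones. Both regions called in CTL near Yap1, a co-activator of Tead factors, were lost, with narrower CTL peaks of 70 and 54 bp. Near its relative Wwtr1 2 of 10 were lost, and near Vgll4 2 of 12.

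In the matrix genes 12 of 185 regions (6.49%) were lost, among them 3 of 14 near Col5a1, 3 of 10 near Lama5 and 2 of 6 near Col1a2. Col5a1 also gained 1 region, with −log10 q-values of 5.75 in line 1 MR and 4.84 in line 2 MR. A region inside Col1a1, the partner chain of Col1a2, moved down in rank by 1.53 (SE 0.39, limma adjusted p = 0.0288). Lists of integrins and focal adhesion, Runx factors and the cell cycle lost between 5.08% and 6.49% of their regions. The list of FGF, EGF and PDGF receptors and MAPK lost 6 of 87 (6.90%). That of enzymes and readers of histone H3 lysine 36 methylation lost 4 of 52 (7.69%). Of the remaining listed genes, Spry2 lost 2 of 4 regions called in both CTL lists, Ptk2 2 of 6, Kdm4b 2 of 9 and Runx1 2 of 23. Kdm4b is a demethylase of histone lysines.

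**Figure D5:**
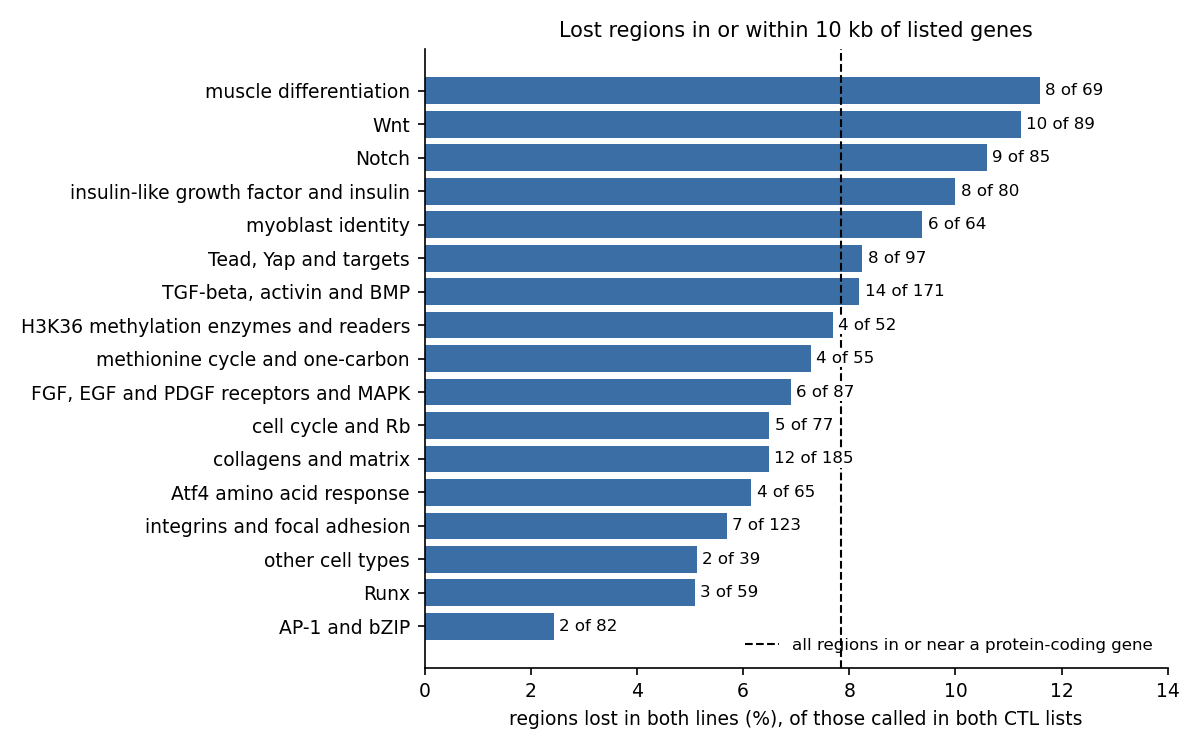
Percent of the regions called in both CTL lists that were lost in both lines, for regions in or within 10 kb of the genes of each list, with the number lost and the number called in CTL beside each bar. The dashed line is the share near any protein-coding gene, 7.84%. Bars run from 2.44% (2 of 82) to 11.6% (8 of 69).

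Losses were spread thinly over genes. Of 15842 protein-coding genes with a region in or within 10 kb of them, 2556 had at least 1 lost region, 2157 exactly 1 and 335 exactly 2. The largest number was 5, at Kirrel3, a cell adhesion molecule, of 18 regions called in both CTL lists, and at Myh9, a non-muscle myosin heavy chain, of 28. Genes with 4 were Gfod1, Nav1, Rad51b, Sppl3, Tnrc18, Tns1, Tspan9, Zcchc14 and Zeb2. Among these genes with 4 or 5 losses the share was highest at Sppl3, an intramembrane protease (4 of 7), and Zcchc14 (4 of 8), and it was 4 of 10 at Zeb2, a transcriptional repressor. Of these 11 genes, 5 had a wide lost region: Tnrc18 had 2, and Kirrel3, Nav1, Rad51b and Zeb2 had 1 each.

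Promoter sequence was described in the RefSeq windows from 250 bases before to 50 after each gene start. Lost regions lay over 309 windows and regions called in both CTL lists over 9941, of 32851 in all. The 11 motifs, searched on both strands, were AP-1 (TGANTCA), Tead (GGAATG), E-box (CANNTG), its myogenic form CAGCTG, Runx (TGTGGT), Mef2 (TATTTAT), Atf4 (TGATGNA), the cAMP response element (TGACGT), CTCF (AGGGGGC), GC box (GGGCGG) and Nfy (CCAAT). The myogenic form is contained in the E-box, and matches of different motifs may overlap. The Nfy motif, seen 3 times at Hlx, was in 28.5% of windows under lost regions, 39.9% under regions called in both CTL lists and 37.4% of all windows. The cAMP response element was in 8.41%, 13.1% and 7.50%, and the GC box in 69.9%, 69.2% and 35.7%. E-boxes were in 57.6%, 60.3% and 72.3%. Windows under wide lost regions numbered 77, with Nfy in 24.7%. The motif search covers the whole window and not only the bases under the peak.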

How the data were processed

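Sample titles gave the groups; the members and gene lists were chosen with earlier results of these data known. Per the labels' protocols, cells were tagmented with a commercial kit, amplified with 10 PCR cycles and sequenced paired-end at 42 nt. The authors deposited 1 broad peak list per library, and each peak carries a score, a ratio (fold enrichment), a −log10 p-value and a −log10 q-value. The build was GRCm38, per the submitters' processing notes. The aligner, filters, duplicate handling, read shift and peak caller are not given in the sources used here. Read totals were not used here, so depth is known only through the background solved from fold and p-value pairs, under an assumed Poisson model. No 2 of the 20 lists were identical.

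Regions, calls and gene positions were computed with Python 3.11.15, NumPy 2.4.6, pandas 2.3.3 and SciPy 1.17.1, with 21900 protein-coding genes of RefSeq GRCm38.p6, of which 422 of 423 listed symbols matched. A region counted as called when a peak overlapped it by 1 bp; where several did, the peak with the highest −log10 q-value gave the values. Normal scores of within-library ranks of fold enrichment were tested with limma 3.58.1 in R 4.3.3 with Benjamini-Hochberg adjustment over all regions tested. The scripts were tested on simulated data. The p-values measure only the spread between these libraries. In the fit over 4 libraries with the line as a block, it was pooled almost wholly over regions and hardly reflects a single region's own spread. Line numbers mark the same KO line, so CTL and MR were paired by line; over regions, scores correlated at 0.887 (line 1) and 0.705 (line 2) within a line and at 0.650 and 0.644 between lines. The named regions were the 12 strongest lost and 8 strongest gained, genes with the most lost regions (8, with ties), listed genes with 2 or more, the 5 largest rank changes each way, and Setd2, Myod1, Myog and Mat2a. These rank changes were taken from regions past the threshold whose sign was the same in both lines. Wide regions were added after the widths were seen. The planned motif windows of 200 bp around region centres were not run, since no genome was used here; promoter windows replaced them.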

Additional observations from a re-analysis of the deposited data

Results flagged for a closer look

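In 156 regions (5.48% of those lost) the peak was lost in both KO lines and gained in WT cells at D1, that is, both WT MR libraries and neither WT CTL library had it. The same WT pattern was found in 6.67% of all regions and in 3.59% of those called in both KO CTL lists. The lists of the 2 genotypes changed in opposite directions in these 156 regions, and the difference was not tested. The strongest lay 162 bp from Ogfod2, with −log10 q-values of 14.1 and 9.91 in KO CTL lines 1 and 2 and of 9.16 and 5.87 in the WT MR libraries. Others lay inside Nrp2, a receptor of semaphorins and VEGF (7.08 and 5.43 against 7.43 and 5.41), and 5445 bp from Col3a1, a fibrillar collagen (8.52 and 4.0 against 6.08 and 8.47). In 112 of the 156 (71.8%) a KO CTL peak was under 79 bp wide, and 6 were wide regions. Of the 257 regions gained in KO, 0 were lost in WT, a pattern found in 0.0881% of the regions called in both KO MR lists.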

How the results depend on the processing

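The number of lost regions was 1694 at a −log10 q-value of at least 5, 917 with equal lists, 1254 with peaks of at least 79 bp and 196 among wide regions. Gained regions numbered 137, 970, 377 and 22 under the same 4 settings and 425 when peaks had to cover 50% of a region. Under the other settings tried (a −log10 q-value of at least 2, depth-equalised lists, merging over 8 libraries or across gaps of 200 bp, and 50% cover for the losses) both counts stayed within 1.5 times. With 1 line alone 13821 to 14501 regions were lost and 2334 to 4039 gained. The mean log2 ratio of peak numbers was negative under every setting, between -0.37 and -0.18, and from -0.41 to -0.33 with 1 line left out. The gene-end share of lost regions was 28.5% at 2 kb (31.8% of regions in both CTL lists), 25.8% with equal lists and 45.9% among wide regions, and the gene-body share 42.1%, 43.3% and 33.2%. Listed genes lost 3.43% of their regions with equal lists, against 3.61% of all regions. With no replicate block, that is without the pairing by line, 0 regions passed in the rank test, against 210 with it. Ranks of −log10 p-values gave 8, peaks of −log10 q-value 5 or more gave 55 (15 of them among the 210), wide peaks 9 and the fit over 8 libraries 0. All 8 and all 9 were among the 210. The difference between KO and WT gave 0 calls with a replicate block on all numbers (2599 at an unadjusted p under 0.05) and with no replicate block (1013). The 10 named rank changes kept their sign under every setting that gave them a value. An equal sign in both lines was a condition of naming them, so their sign with 1 line left out was fixed in advance. Regions were called in 2 lines only.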

Other observations

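Of the 40 regions lost in both genotypes at D1, those with the highest lower KO CTL −log10 q-value lay 39213 bp from Lrrc32 (8.27 in line 1 and 6.85 in line 2), inside Smarca4, the ATPase of a chromatin remodelling complex (5.68 and 6.97), inside Tnrc18 (7.83 and 5.43) and inside Elavl1, an RNA-binding protein (5.40 and 5.46). Of these 4, the Tnrc18 region alone was wide, with peaks of 397 and 419 bp. Bmp5, a ligand of the BMP family, also held one (5.45 and 4.98).

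Among regions whose 4 peaks were wide, the 9 that passed the rank test were chosen by that result alone. In the fit over all 26991 regions, the 4 that moved up were nearest to Ptgs2, Gng12, Sox9 and Rbbp8, with normal score differences of 2.07, 2.04, 1.69 and 1.64. In the fit over wide regions alone, Ptgs2 differed by 2.03 and Gng12 by 2.07. In the fit over all regions, the 5 that moved down were nearest to Zmiz1 (-1.68), Depdc5 (-1.65), Dip2c (-1.59), Anxa6 (-1.51) and Zfp46 (-1.40). In WT the region near Sox9 differed by 1.88 and that in Zfp46 by -1.97, each with a limma adjusted p of 0.0202, while Anxa6 differed by -0.06. At Anxa6 the difference between the KO and WT effects did not pass (limma adjusted p = 0.265).

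The share of regions called in both CTL lists that were lost ran from 5.67% on chromosome 14 (67 of 1182) to 9.96% on chromosome 9 (181 of 1818), against 7.61% over all chromosomes. The differences between chromosomes were not tested.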
